A study of Mus musculus with 3 samples.

Results

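Matrix metalloproteinases (MMPs), the ADAM and ADAMTS metalloproteases and their tissue inhibitors (TIMPs) were described in renin-producing cells sorted from the mouse kidney. Members were all genes whose platform symbol starts with Mmp, Adam or Timp and a digit, or with Adamts, on probe sets with a single gene symbol. This gave 83 genes on 108 probe sets, of 19938 genes measured: 4 Timp, 22 Mmp, 34 Adam, and 23 Adamts and Adamtsl genes. The single group comprised 3 arrays, replicates 2, 4 and 5, each hybridised with amplified RNA of YFP-positive cells from the kidney cortex of adult male Ren1c-YFP transgenic mice of unspecified strain. For 2 weeks every mouse drank water with captopril (0.5 mg/ml), which blocks the angiotensin-converting enzyme, and ate low-salt chow. Samples without treatment, without the sort or of YFP-negative cells were not analysed here, so a level describes the sorted cells under treatment and not an effect of captopril, salt or the sort. Per the labels samples were not pooled; whether each sample is 1 animal is not stated there, so a p-value covers only the spread between these samples.

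MMPs are zinc-dependent endopeptidases that cleave collagens, laminins and other matrix proteins, either as secreted or as membrane-type enzymes. ADAMs are mostly membrane proteins, several of which release the outer parts of growth factors, cytokines and receptors, while ADAMTSs are secreted enzymes that cleave proteoglycans and process procollagens. ADAMTS-like proteins resemble ADAMTSs without a protease domain. TIMPs bind the active sites of these enzymes, and in the kidney both sides take part in turnover of vessel walls, where renin cells sit, and of the mesangium. Not every member acts on matrix: a large group of ADAMs is known from testis and epididymis, where its products work in sperm, and a further few from brain lack protease activity.

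A gene was called above background where its log2 signal exceeded, by limma's one-sided test with Benjamini-Hochberg adjusted p under 0.05 over all 19938 genes, a level set on each array. That level was the 95th percentile of 1027 olfactory receptor genes and came to 6.20, 6.32 and 6.50 in replicates 2, 4 and 5. Array medians over all probe sets were 6.09 to 6.21. In the same samples all 9 renin cell markers, all 9 smooth muscle markers and all 8 pericyte and mesangial markers were called, but so were all 9 proximal tubule markers, 8 of 8 distal tubule and collecting duct markers, 5 of 6 of the thick ascending limb and 8 of 12 of the endothelium. The endothelial count was 4 without replicate 2, 11 without replicate 5 and 1 with the 99th percentile as level. Of all genes 37.3% were called in the main setting, and 30.3%, 39.2% and 16.6% in these settings in turn. The list counts were 4 of 9 for fibroblasts, 1 of 6 for podocytes, 2 of 9 for macrophages, 1 of 3 for erythroid cells, 0 of 8 for neutrophils and 0 of 6 for lymphocytes. A call therefore does not say which cells the transcript came from, and fewer cells of a type cannot be told apart from less RNA per cell. The level was the same for every gene of an array, and since probes differ in affinity, the size of a difference from it does not rank one gene's RNA against another's.

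Among the matrix proteases and their inhibitors, 17 of 83 genes were above background (20.5%), against 7437 of all 19938 genes (37.3%). The inhibitors Timp3 and Timp2, the sheddases Adam9, Adam17 and Adam10, and the secreted proteases Adamts9 and Adamts17 were among them. Of the MMPs only Mmp14, Mmp2 and Mmp11 passed, and no collagenase, no brain ADAM and no ADAM of the reproductive tract did. At an unadjusted p under 0.05, 21 members passed, still without a collagenase or a brain ADAM, but with 1 reproductive-tract gene, Adam1a. The share of all genes at this looser threshold was not counted, so the number is a description only. The median member lay 0.63 log2 units under the background level, against 0.01 under it for the median of all genes. Without the 22 reproductive-tract ADAMs, which make up a large part of the list, 17 of 61 members were called (27.9%) and the median was 0.42 under the level. All 17 called members exceeded the level on each of the 3 arrays, and 52 members were under it on all 3.

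**Figure D1:**
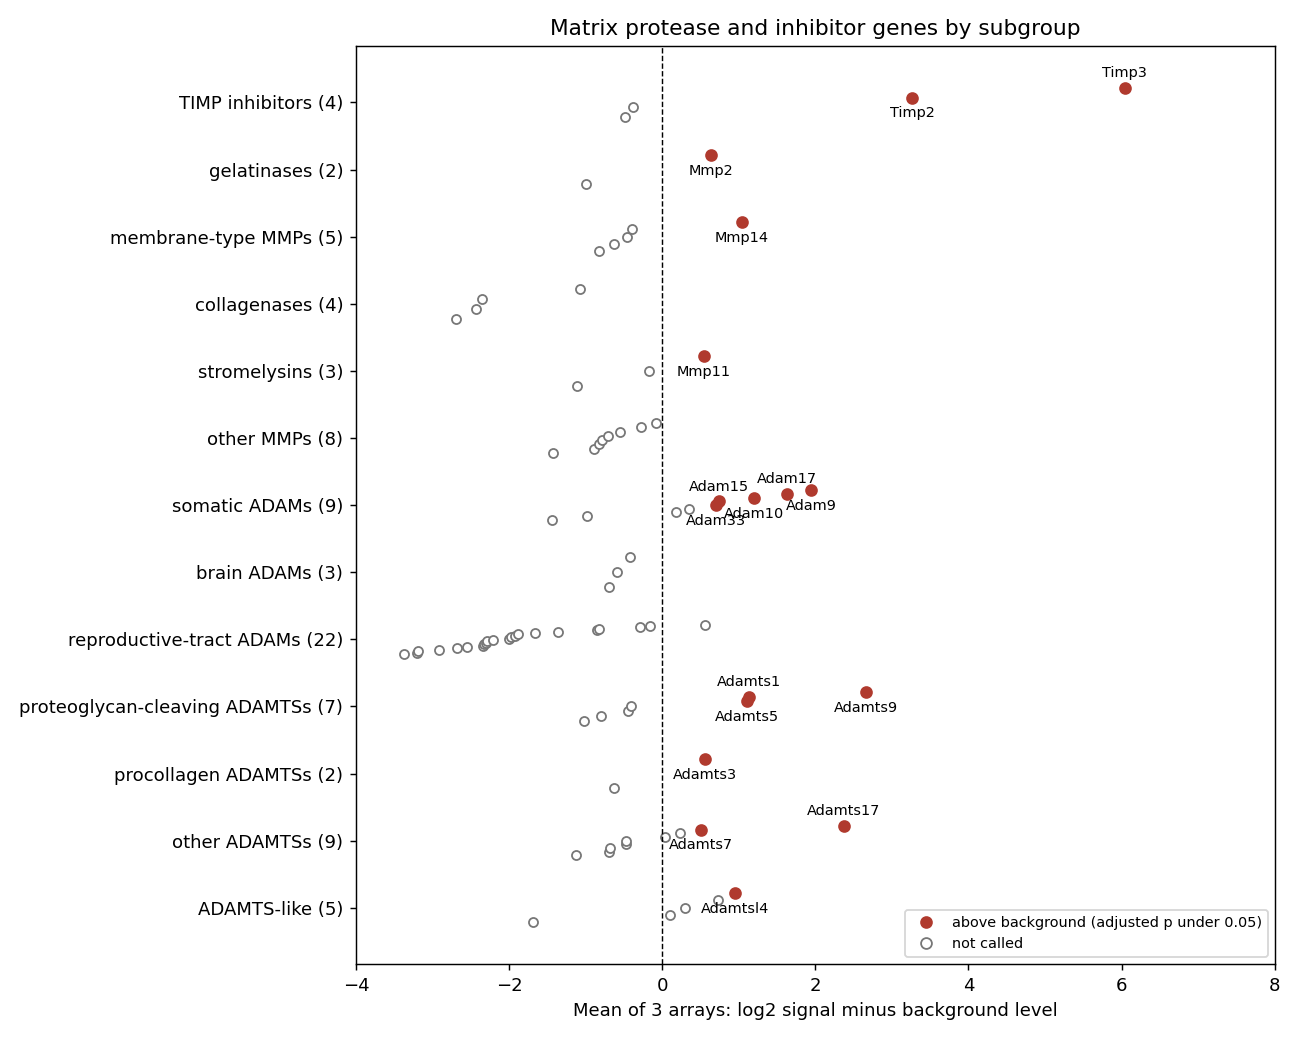
Mean log2 signal minus background level over the 3 arrays (x axis) for each of the 83 genes, in rows by subgroup with the number of genes in parentheses. Filled points are the 17 genes called above background, open points the other 66, and the dashed line is the background level; Timp3 lies 6.04 above it and Adam26a 3.37 under it.

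The start regions of 8 members are shown. The 4 inhibitor genes differ from each other in CpG content. The 4 genes shown from the Mmp gene cluster all hold both motifs described further on, which not every gene of that cluster does. RefSeq windows of 300 bases, from 250 before to 50 after the annotated start (build GRCm38.p6), were matched by symbol for 52 of the 83 members. The 4 Timp windows are given first, whole, with CpG dinucleotides in capitals.
Timp3: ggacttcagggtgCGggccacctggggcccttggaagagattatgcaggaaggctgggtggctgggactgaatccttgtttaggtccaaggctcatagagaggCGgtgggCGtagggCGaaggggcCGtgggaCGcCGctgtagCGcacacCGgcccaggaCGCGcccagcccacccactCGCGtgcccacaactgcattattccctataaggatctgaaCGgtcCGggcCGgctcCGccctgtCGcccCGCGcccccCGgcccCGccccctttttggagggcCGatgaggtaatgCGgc
Timp2: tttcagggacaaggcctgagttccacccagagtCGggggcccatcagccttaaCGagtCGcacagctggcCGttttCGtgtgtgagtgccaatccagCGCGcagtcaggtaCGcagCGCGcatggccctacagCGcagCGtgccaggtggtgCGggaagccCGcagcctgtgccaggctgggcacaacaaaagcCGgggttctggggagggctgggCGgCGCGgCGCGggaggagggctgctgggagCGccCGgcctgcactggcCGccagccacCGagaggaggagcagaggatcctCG
Timp1: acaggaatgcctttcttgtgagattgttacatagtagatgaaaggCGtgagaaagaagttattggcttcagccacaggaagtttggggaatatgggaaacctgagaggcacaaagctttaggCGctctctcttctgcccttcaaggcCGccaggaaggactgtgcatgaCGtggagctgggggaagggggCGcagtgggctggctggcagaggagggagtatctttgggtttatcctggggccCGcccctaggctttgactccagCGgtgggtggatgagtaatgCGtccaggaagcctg
Timp4: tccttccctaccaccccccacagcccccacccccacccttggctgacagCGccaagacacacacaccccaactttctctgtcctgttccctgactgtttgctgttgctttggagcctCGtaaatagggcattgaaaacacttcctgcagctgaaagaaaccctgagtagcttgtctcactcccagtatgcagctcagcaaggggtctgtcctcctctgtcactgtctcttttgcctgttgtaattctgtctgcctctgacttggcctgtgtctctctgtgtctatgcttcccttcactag
They are at chr10:86300162-86300461 (plus strand), chr11:118355362-118355661 (minus strand), chrX:20869916-20870215 (plus strand) and chr6:115252156-115252455 (minus strand). The windows of Timp3 and Timp2, both called, hold 24 and 25 CpGs, and those of Timp1 and Timp4, both not called, hold 8 and 2.

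The next 4 are from the Mmp gene cluster of chromosome 9 and run from 120 bases before to 30 after the start. Capitals mark the motif TGANTCA, to which AP-1 factors (Fos and Jun dimers) are known to bind and which reads the same on both strands, and the motif TATAAA, searched on the gene's strand only. The 2 motifs do not overlap in these windows.
Mmp3: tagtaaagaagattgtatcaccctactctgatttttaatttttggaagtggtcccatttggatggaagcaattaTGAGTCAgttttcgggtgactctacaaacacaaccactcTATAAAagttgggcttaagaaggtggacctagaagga
Mmp10: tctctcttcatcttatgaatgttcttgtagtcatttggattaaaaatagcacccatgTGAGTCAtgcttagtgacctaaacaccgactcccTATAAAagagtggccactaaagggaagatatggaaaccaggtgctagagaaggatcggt
Mmp13: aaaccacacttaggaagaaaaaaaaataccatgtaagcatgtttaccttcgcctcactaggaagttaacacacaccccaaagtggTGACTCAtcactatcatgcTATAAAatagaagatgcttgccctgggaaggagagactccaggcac
Mmp1a: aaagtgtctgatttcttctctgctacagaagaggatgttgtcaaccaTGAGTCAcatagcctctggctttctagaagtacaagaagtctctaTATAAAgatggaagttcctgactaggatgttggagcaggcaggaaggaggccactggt
They are at chr9:7445702-7445851 (plus strand), chr9:7502222-7502371 (plus strand), chr9:7272394-7272543 (plus strand) and chr9:7464021-7464170 (plus strand). TGANTCA begins 46, 63, 35 and 73 bases before the start in Mmp3, Mmp10, Mmp13 and Mmp1a, and TATAAA 7, 29, 16 and 28 bases before it. None of these 4 genes was called.

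Of the 4 inhibitor genes, Timp3 and Timp2 were called and Timp1 and Timp4 were not. Timp3, whose product is bound to the extracellular matrix and inhibits MMPs, ADAM17 and aggrecan-cleaving ADAMTSs, had log2 signals of 12.53, 12.44 and 12.17 in replicates 2, 4 and 5. Its mean of 12.38 ± 0.19 (SD, n = 3 here and below) was 6.04 above background (95% interval 5.60 to 6.48, adjusted p = 1.35e-07). The 3 arrays lay within 0.36 log2 units of each other, and this was the single member still called when the background was set by keratin-associated protein genes.

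Timp2, a secreted inhibitor that also joins Mmp14 in activating the proenzyme of Mmp2, stood at 10.66, 9.04 and 9.13, or 9.61 ± 0.92. This was 3.27 above background (95% interval 2.39 to 4.15, adjusted p = 1.27e-04). Replicate 2 was 1.63 log2 units above replicate 4, the widest range of any member, and without replicate 2 the mean was 2.67 above background with an adjusted p of 6.00e-04. Timp1, the inducible secreted inhibitor, had signals of 6.24, 5.72 and 5.90 and exceeded the level on replicate 2 alone (mean 5.95 ± 0.27, 0.39 under background). Timp4 was at 5.53, 6.07 and 5.99, under the level on every array (5.86 ± 0.29, 0.48 under it).

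**Figure D2:**
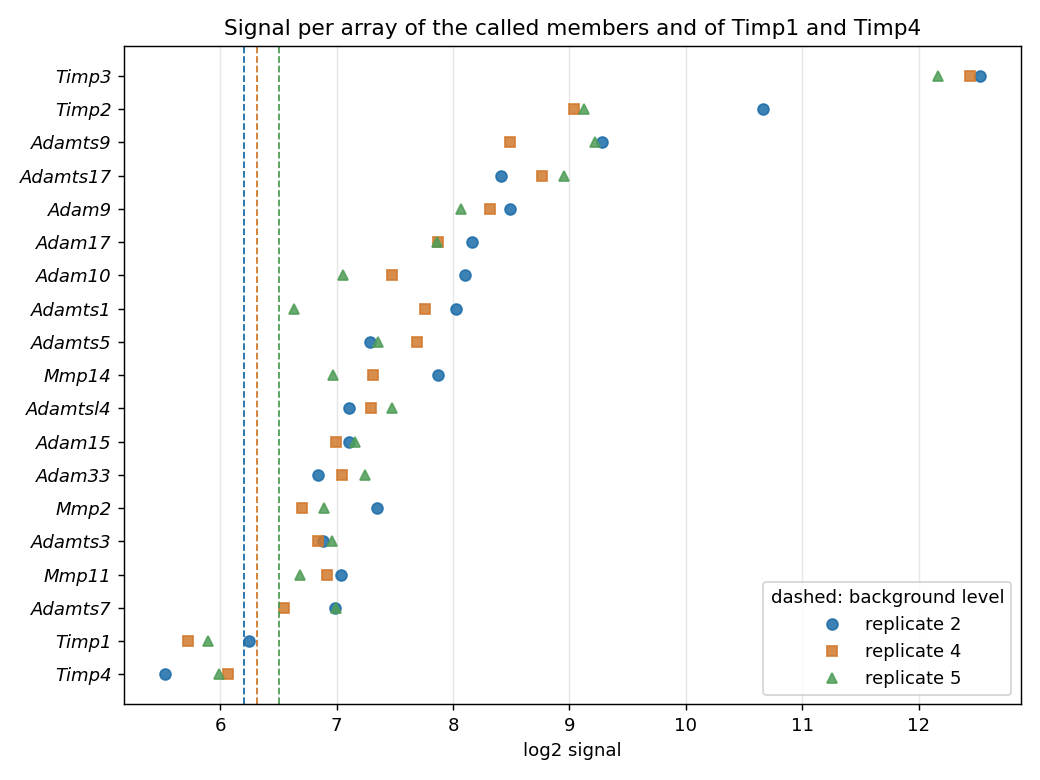
Log2 signal (x axis) of the 17 called genes and of Timp1 and Timp4 on each array, with 1 marker shape and colour per replicate; dashed lines give each array's background level, 6.20, 6.32 and 6.50. The points of Timp3 lie between 12.17 and 12.53, and Timp2 in replicate 2 (10.66) stands apart from its other arrays.

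Of 22 Mmp genes 3 were called (13.6%, against 37.3% of all genes). Mmp14, the membrane-type enzyme known as MT1-MMP, had signals of 7.87, 7.31 and 6.97 (7.38 ± 0.45, 1.04 above background, 95% interval 0.46 to 1.63, adjusted p = 0.00608). Mmp2, gelatinase A, which Mmp14 activates, was at 7.35, 6.70 and 6.89 (6.98 ± 0.33, 0.64 above, 95% interval 0.16 to 1.12, adjusted p = 0.0220). Replicate 2 was the highest array for both genes. Mmp11, stromelysin-3, known to be activated inside the cell by furin, was at 7.04, 6.92 and 6.69 (6.88 ± 0.18, 0.54 above, adjusted p = 0.0278). Without replicate 2 the calls of Mmp2 and Mmp11 were lost (adjusted p = 0.133 and 0.155), which left Mmp14 with an adjusted p of 0.0382 as the single called MMP. Without replicate 4 Mmp11 was not called either (adjusted p = 0.106).

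The other 19 Mmp genes had means under the background level. Gelatinase B, Mmp9, was at 5.50, 5.36 and 5.17 (5.34 ± 0.16, 1.00 under the level). In the same samples 0 of 8 neutrophil markers were called, and a link to the Mmp9 signal was not tested. The remaining membrane-type genes Mmp16, Mmp17, Mmp25 and Mmp24 lay 0.39, 0.46, 0.63 and 0.82 under it. The collagenases were further down, Mmp13 at 1.08 and Mmp8, Mmp1a and Mmp1b at 2.35, 2.44 and 2.69 under the level. Of the stromelysins Mmp3 lay 1.11 under, whereas Mmp10 had signals of 5.95, 5.95 and 6.61 and exceeded the level on replicate 5 (mean 0.17 under). Mmp23 was the closest of the rest, at 6.49, 6.01 and 6.27 and a mean 0.08 under the level, and Mmp27 the lowest, 1.43 under. Mmp28, Mmp7, Mmp21, Mmp19, Mmp12 and Mmp20 lay between 0.28 and 0.89 under it.

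The low Mmp genes include a run of neighbours. In the RefSeq annotation 10 members, from Mmp13 to Mmp7, follow each other on chromosome 9 with no more than 5 other protein-coding genes between neighbours. None of the 10 was called, against 37.3% of all genes, and their means lay 0.17 to 2.69 under background. TGANTCA and TATAAA stood together in a window of 8 of these 10 genes (80.0%), and in 1 of the 42 other members with a window (2.38%), Adam29, against 1.13% of the 15614 measured genes with a window. The cluster genes without both were Mmp8 and Mmp27. TGANTCA, with or without TATAAA, occurred in 0 of the 12 called members with a window and in 13 of the 40 not called, against 5.74% of all called genes and 9.55% of all genes not called. Of these 13, 8 were in the Mmp cluster and 4 among the reproductive-tract ADAMs, and the other 19 uncalled members held 1 (5.26%), Adam19. A match is a run of letters and not a bound site, and 31 members without a window were not searched.

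The 12 called members held a median of 24.5 CpGs in their window, with a range of 10 (Mmp14) to 41 (Adamts3), against a median of 3 in the 40 members not called. Over all measured genes the medians were 23 in called and 10 in uncalled genes. The uncalled members comprised the Mmp cluster (median 1.5), 11 reproductive-tract ADAMs (median 1) and 19 others, which had a median of 19 and reached 46 in Adamtsl3, which lay 1.69 under background. Where a gene had several windows the highest count was taken, and no test was made.

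**Figure D3:**
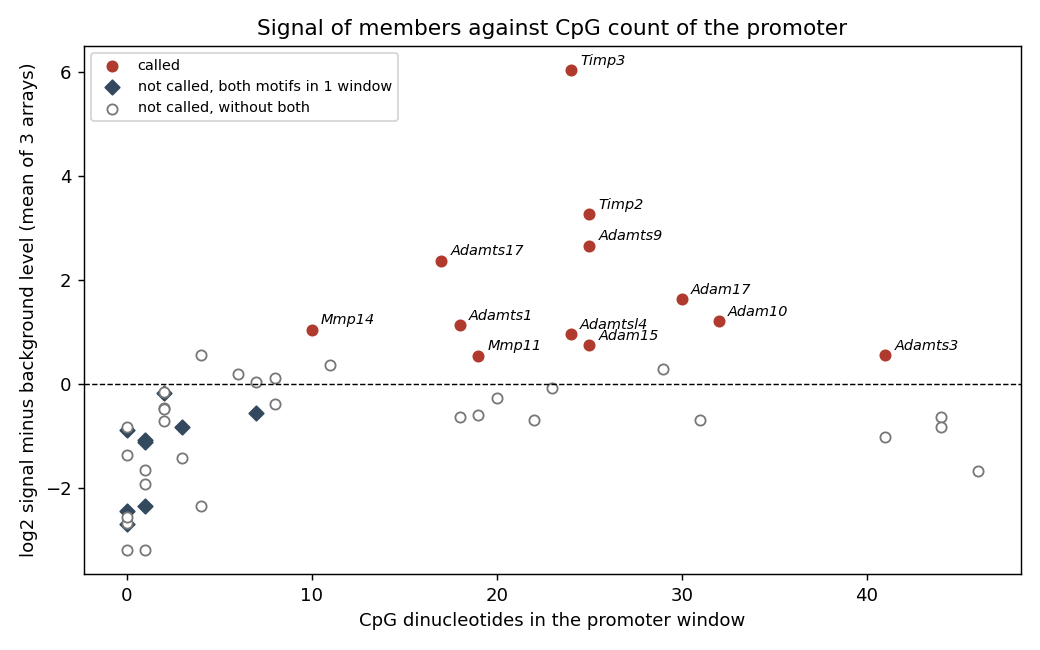
CpG dinucleotides in the 300-base promoter window (x axis) against mean log2 signal minus background level (y axis) for the 52 genes with a window. Filled circles are called genes, diamonds uncalled genes with both motifs in 1 window, open circles the rest; no called gene has fewer than 10 CpGs, while uncalled genes occur from 0 to 46.

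Of the 9 ADAMs known from somatic tissues 5 were called (55.6%, against 37.3% of all genes). Adam9, a widely expressed sheddase, was at 8.49, 8.31 and 8.07 (8.29 ± 0.21, 1.95 above background, 95% interval 1.38 to 2.51, adjusted p = 1.91e-04). Adam17, the enzyme that releases tumour necrosis factor and several ligands of the EGF receptor, was at 8.17, 7.87 and 7.86 (7.97 ± 0.17, 1.62 above, adjusted p = 3.49e-04). Both were uniform, with 0.42 and 0.30 log2 units between the highest and lowest array. Adam10, which makes the first ligand-induced cut in Notch receptors, was at 8.11, 7.48 and 7.05 (7.55 ± 0.53, 1.20 above, adjusted p = 0.00437). Its arrays spanned 1.05 log2 units with replicate 2 highest. Adam15, a disintegrin protease of vascular cells, was at 7.11, 7.00 and 7.16 (0.75 above, adjusted p = 0.00493), and Adam33 at 6.84, 7.04 and 7.24 (0.70 above, adjusted p = 0.00559).

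The other somatic ADAMs divided around the level. Adam19 exceeded it on each array at 6.60, 6.62 and 6.88 without reaching the threshold (0.35 above, adjusted p = 0.0585), as did Adam8 at 6.25, 6.50 and 6.83 (0.19 above, adjusted p = 0.271). Adam19 was called without the variance trend and after quantile normalization (adjusted p = 0.0352 and 0.0466), so its side of the threshold depended on the setting. Adam12 and Adam28 lay 0.98 and 1.43 under the level.

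None of the 22 ADAMs known mainly from testis or epididymis was called, against 37.3% of all genes. Of the 22, 21 had means under background, down to 3.37 under it for Adam26a. The exception was Adam1a at 7.08, 7.38 and 6.23, which was under the level on replicate 5 (mean 0.55 above, adjusted p = 0.0865, and 0.00219 without replicate 5). Its neighbour on chromosome 5, Adam1b, was at 6.29, 6.45 and 5.81 (0.16 under). Both were highest in replicate 4 and lowest in replicate 5. Adam4 exceeded the level on replicate 4 only, at 6.42. The median of the 22 genes was 2.10 under background. On chromosome 8, runs of 4 neighbours, Adam24, Adam25, Adam20 and Adam39, and Adam26b, Adam26a, Adam34l and Adam34, held no called gene, and in a run of 5 Adam9 was called while Adam18, Adam3, Adam5 and Adam32 lay 1.89 to 2.29 under the level. Near-identical members of these runs can share probe sequence. Left out were 2 probe sets with several gene symbols. The first named Adam34l, Adam26b, Adam34 and Adam26a with Gm5347, and the second Adam4, of chromosome 12, with Gm4787. The brain members Adam11, Adam22 and Adam23, which have no protease activity, lay 0.42, 0.60 and 0.70 under background.

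Of 18 Adamts genes 6 were called (33.3%) and of 5 Adamtsl genes 1 (20.0%), against 37.3% of all genes. In the group that cleaves proteoglycans, Adamts9, which cuts versican and aggrecan, was at 9.28, 8.49 and 9.22 on the probe set taken (8.997 ± 0.44, 2.66 above background, 95% interval 2.04 to 3.28, adjusted p = 5.99e-05). Adamts1, a versicanase known for its effect on vessel growth, was at 8.03, 7.76 and 6.63 (7.47 ± 0.74, 1.13 above, adjusted p = 0.0121). Replicate 5 was the low array of Adamts1, only 0.13 above its level, and without replicate 2 the gene was not called (adjusted p = 0.0828). Adamts5, an aggrecanase and the neighbour of Adamts1 on chromosome 16, was at 7.29, 7.69 and 7.35 (7.44 ± 0.21, 1.10 above, adjusted p = 0.00143). The pair on chromosome 16 was thus called in both members, but with different high arrays. Adamts8, Adamts15, Adamts4 and Adamts20 of the same group lay 0.40, 0.45, 0.80 and 1.02 under background.

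The remaining ADAMTS genes include enzymes of procollagens and of microfibrils, the fibrillin-based fibres of vessel walls. Adamts17, which in humans is linked to a short-stature syndrome with lens defects, was at 8.41, 8.76 and 8.95 on its highest probe set (8.71 ± 0.27, 2.37 above, 95% interval 1.83 to 2.91, adjusted p = 5.18e-05). Its deposited signal was highest in replicate 5, where Timp2 and Adam10 were highest in replicate 2. Adamts7, which cleaves cartilage oligomeric matrix protein, was at 6.99, 6.55 and 6.99 (0.50 above, adjusted p = 0.0302) and is the called member nearest to the threshold. Adamts3, a procollagen N-propeptidase, was at 6.89, 6.84 and 6.96 on its highest probe set (0.55 above, adjusted p = 0.0143). Both of the last named lost their calls without replicate 2 (adjusted p = 0.165 and 0.0782) and without replicate 4 (adjusted p = 0.0551 and 0.0756). Adamts10 (0.24 above) and Adamts12 (0.03 above) did not pass, with adjusted p of 0.254 and 0.862. Adamts13, the protease of von Willebrand factor, Adamts16, Adamts14, Adamts6 and Adamts18 lay 0.47 to 0.69 under background, and Adamts19 lay 1.13 under.

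Among the ADAMTS-like genes Adamtsl4, whose product associates with fibrillin microfibrils, was at 7.11, 7.30 and 7.47 (7.29 ± 0.18, 0.95 above, adjusted p = 0.00172). Adamtsl1 was at 7.91, 6.55 and 6.76 (7.07 ± 0.73, 0.73 above) and is the uncalled member nearest to the threshold, with an adjusted p of 0.0523. It was called without replicate 4 and without replicate 5 (adjusted p = 0.0129 and 0.0266) and far from it without replicate 2 (adjusted p = 0.298). Adamtsl5 (0.29 above, adjusted p = 0.0980) and Adamtsl2 (0.11 above, adjusted p = 0.508) did not pass.

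The probe sets of a gene did not always give the same reading, and 4 members had more than 1. For Adamts9, 5 of 6 probe sets were called, with means of 8.997, 7.66, 7.56, 7.30 and 7.08, and the last was under the level at 5.26. For Adamts17, 2 of 5 were called, at 8.71 and 8.40, while the other 3 lay under the level at 5.74, 5.40 and 5.32. Adamts3 had 16 probe sets, of which 1 was called, and 14 lay under the level, down to 3.27. The highest of 16 was taken for this gene, and with the mean of its probe sets it lay 1.15 under background and was not called. With their mean Adamts9 and Adamts17 stayed called at 0.98 and 0.385 above (adjusted p = 0.00157 and 0.0449), while the median probe set of Adamts17 was 0.60 under the level. The 2 probe sets of Adamtsl1 had means of 7.07 and 6.21. Which transcripts these probe sets detect was not tested.

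**Figure D4:**
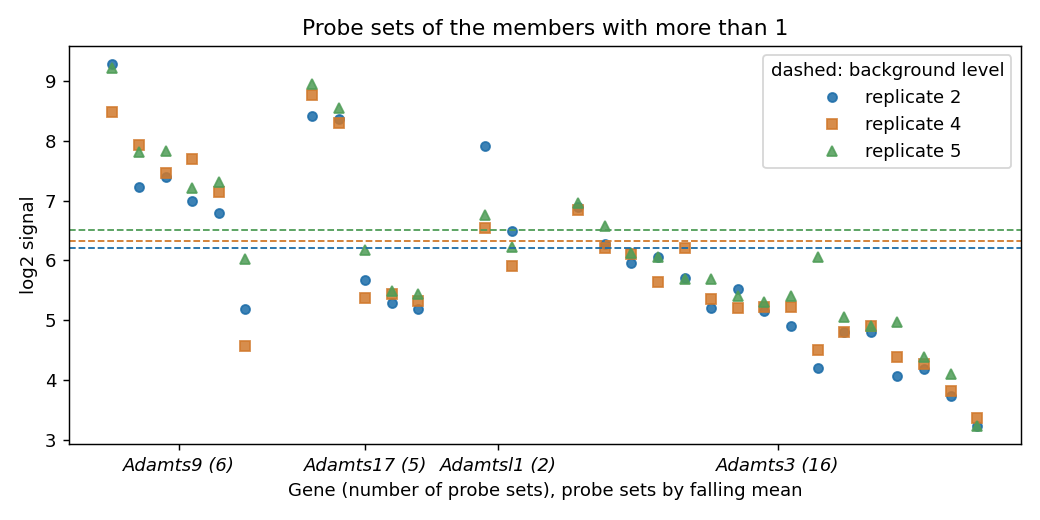
Log2 signal (y axis) of every probe set of the 4 genes with more than 1, ordered within each gene by falling mean (x axis), with 1 marker per replicate; dashed lines are the arrays' background levels. In Adamts9 5 of 6 probe sets are called, in Adamts17 2 of 5 and in Adamts3 1 of 16.

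Replicates differed more for some members than for others. The range over the 3 arrays exceeded 1 log2 unit in 3 of the 17 called members (17.6%), against 1022 of all 7437 called genes (13.7%). These were Timp2 (1.63), Adamts1 (1.40) and Adam10 (1.05), all with their maximum in replicate 2. Among uncalled members Adamtsl1 (1.36), Adam34l (1.26) and Adam1a (1.15) did so. Replicate 2 held the highest deposited signal for 10 of 17 called members, replicate 4 for 1 and replicate 5 for 6, and over all called genes these shares were 43.8%, 35.4% and 20.8%. After subtraction of each array's level, which is highest in replicate 5 and is the scale of the test, the members' counts were 13, 2 and 2, against 62.1%, 30.3% and 7.65% of all called genes. In deposited signal Adamts5 was the gene highest in replicate 4, and Adamts17, Adamtsl4 and Adam33 were highest in replicate 5 and lowest in replicate 2. Relative to the level, Adamtsl4 was highest in replicate 4 (0.98, against 0.97 in replicate 5) and Adamts17 stood at 2.45 in both.

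Several marker lists were also highest in replicate 2: 11 of 12 endothelial markers, 7 of 9 renin cell markers and 7 of 9 smooth muscle markers, against 43.8% of all called genes. The other lists had 5 of 9 for proximal tubule, 3 of 6 for podocytes, 3 of 8 for pericyte and mesangial cells and 3 of 9 for fibroblasts. They had 2 of 6 for thick ascending limb, 1 of 9 for macrophages, 1 of 8 for neutrophils and 1 of 6 for lymphocytes. Distal tubule and collecting duct had 0 of 8 and erythroid cells 0 of 3. The endothelial list's median signal was 7.78, 6.94 and 6.71 in replicates 2, 4 and 5, and its summed log2 signal was 96.2, 85.1 and 84.2. Tek was the exception, at 6.41, 7.11 and 6.63, and no marker's mean lay under the level. Smooth muscle markers had medians of 10.91, 10.45 and 10.89, and renin cell markers medians of 9.12, 8.38 and 8.58. The part of RNA from endothelium, from renin cells or from smooth muscle in the high values of Timp2, Adam10, Mmp14, Mmp2, Adamts1 and Adamtsl1 in replicate 2 was not tested. Without replicate 2, 12 of 83 members were called, against 6051 of all 19938 genes (30.3%), and all 12 were among the 17: Timp2, Timp3, Mmp14, Adam9, Adam10, Adam15, Adam17, Adam33, Adamts5, Adamts9, Adamts17 and Adamtsl4. The same 12 kept their calls whichever array was left out.

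**Figure D5:**
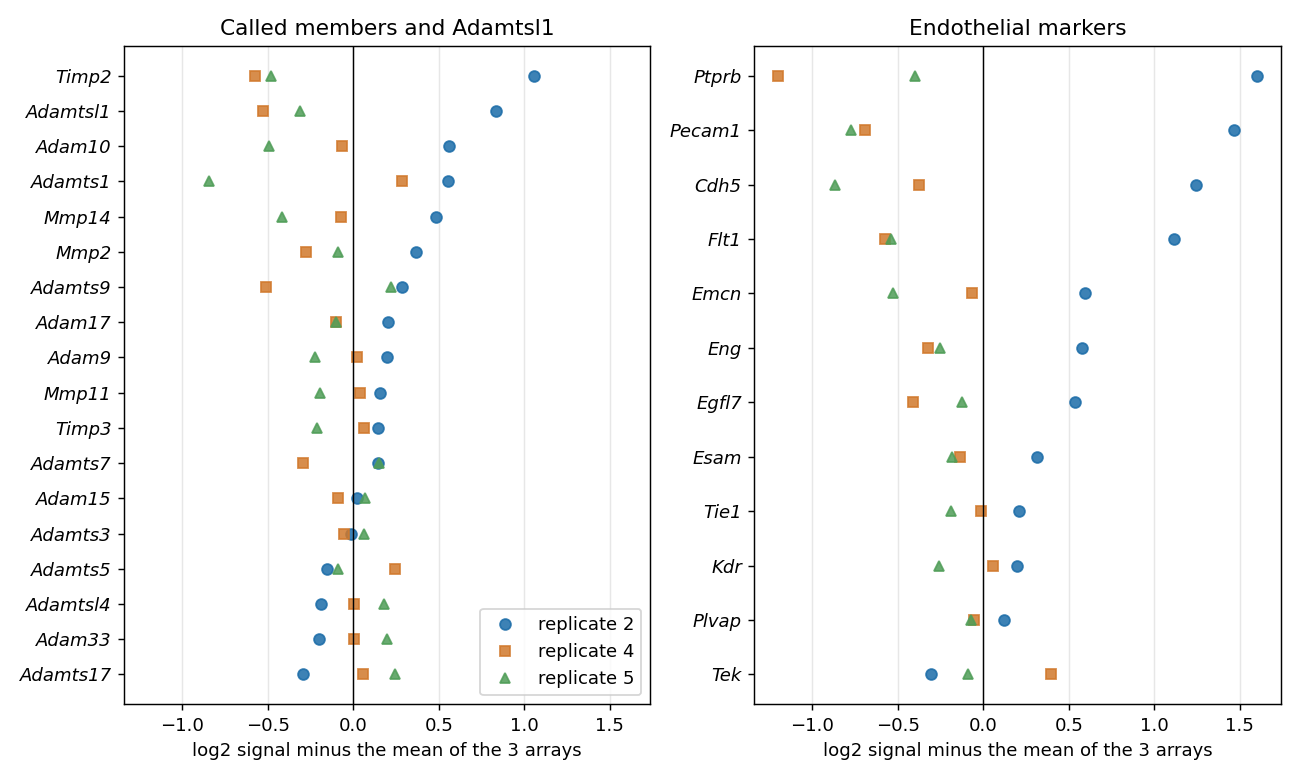
Log2 signal of each array minus the mean of the 3 (x axis) for the 17 called members and Adamtsl1 (left) and for 12 endothelial markers (right), with 1 marker per replicate and genes sorted by replicate 2. Timp2 in replicate 2 lies over 1 log2 unit to the right, as do Ptprb, Pecam1, Cdh5 and Flt1, while Adamts17 and Tek lie to the left.

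Genes that act with the members were described from lists drawn up for this purpose. Of 7 proprotein convertases, some of which cut the propeptides of membrane-type MMPs, ADAMs and ADAMTSs, 3 were called (42.9%, against 37.3% of all genes). These were Furin at 7.51, 7.56 and 7.55 (1.20 above background, adjusted p = 7.86e-04), Mbtps1 (0.76 above) and Pcsk5 (0.44 above). Pcsk1 was lowest at 1.13 under. Furin differed by only 0.05 between arrays. It was the convertase left without replicate 2, where the count was 1 and 30.3% of all genes were called. The list's median was 0.22 above the level.

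Of 15 cofactors and clearance receptors 7 were called (46.7%, against 37.3% of all genes, median 0.28 above). Bsg, the membrane protein known as an inducer of MMPs, was at 10.29, 10.27 and 9.15 (3.56 above), and Itgav at 9.67, 10.16 and 9.26 (3.36 above). Tubule markers were called in these samples, and which cells gave the Bsg signal was not tested. Lrp1, an endocytic receptor that clears several TIMPs and ADAMTSs, was at 8.31, 7.55 and 7.43 (1.42 above, adjusted p = 0.00167). Among the tetraspanins that escort Adam10 out of the endoplasmic reticulum, Tspan5 (1.48 above), Tspan14 (1.02) and Tspan17 (0.40) were called, and Tspan10, Tspan15 and Tspan33 were not. The iRhom genes Rhbdf1 and Rhbdf2 and Frmd8, needed for Adam17 at the cell surface, did not pass, at 0.10 above and 0.29 and 0.41 under the level. Their partner Adam17 was called on the same arrays. Cd9 (2.80 above) was the seventh gene called and Cd44 (0.67 under) the lowest.

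Outside the TIMP family, inhibitors and modulators were called in 3 of 12 cases (25%, against 37.3% of all genes, median 0.07 under). Reck, a membrane-anchored inhibitor of MMPs, was at 8.27, 7.33 and 7.15 (1.24 above, adjusted p = 0.00474), highest in replicate 2 like Timp2. Thbs1, a matricellular protein, was 1.71 above, and Pcolce 2.37 above. Pcolce is known as an enhancer of procollagen processing rather than an inhibitor. Tfpi2 missed the threshold (0.43 above, adjusted p = 0.0540), and Spock3 was lowest at 1.40 under.

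In the plasminogen system, whose protease plasmin can activate MMPs, 3 of 8 genes were called (37.5%, against 37.3% of all genes, median 0.17 under). Plau, urokinase, was at 8.32, 8.24 and 7.59 (1.71 above), Plat, the tissue-type activator, at 7.51, 7.11 and 7.20 (0.93 above), and Serpinf2, the plasmin inhibitor, at 7.43, 7.46 and 7.14 (1.00 above). The urokinase receptor gene Plaur (0.81 under) and plasminogen itself, Plg (1.07 under), were not called, and Serpinb2 was lowest at 1.53 under.

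Of 17 collagen and basement membrane genes 14 were called (82.4%, against 37.3% of all genes, median 1.05 above). This count was 12 without replicate 2, against 30.3% of all genes, and 5 with the 99th percentile as level, against 16.6% of all genes. Called genes included Fn1 at 10.78, 9.66 and 9.35, 3.59 above, Lamc1 (2.20), Lamb2 (2.01), Lamb1 (1.89) and Col1a2 (1.47), and Nid2 was lowest at 0.23 under. Of 11 proteoglycan genes and their partners 3 were called (27.3%), Bgn at 11.70, 10.65 and 10.55 (4.62 above), Hspg2 (0.99) and Agrn (0.45). Versican and aggrecan, the known targets of Adamts1, Adamts5 and Adamts9, were not: Vcan lay 1.54 and Acan 0.95 under the level, and Hapln1 was lowest at 1.61 under. Of 11 microfibril genes 4 were called (36.4%), Ltbp1 (2.05 above), Fbln5 (1.43), Mfap2 (1.28) and Ltbp3 (1.00), and Mfap4 was lowest at 0.94 under. Fn1, Bgn and Fbln5 were highest in replicate 2, by more than 1 log2 unit over at least 1 other array.

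Of 27 proteins known to be shed or cut by ADAMs 17 were called (63.0%, against 37.3% of all genes, median 0.85 above). This count was 14 without replicate 2, where 30.3% of all genes were called. It was 8 with the 99th percentile as level, where 16.6% of all genes were called. App was at 11.64, 11.37 and 10.87 (4.95 above), and Egf at 10.36, 10.38 and 9.16 (3.62 above). Jag1 was at 9.93, 8.74 and 9.13 (2.93 above), Kl 2.84 above and Cdh1 2.59 above. At least Egf and Cdh1 are known tubule transcripts, and which cells gave any of these signals was not tested. The EGF receptor ligands Hbegf and Tgfa were called at 1.47 and 1.18 above, with Hbegf at 7.85, 7.76 and 7.81. Tnf, the namesake substrate of Adam17, lay 0.64 under and its receptor Tnfrsf1a 1.43 above. Ereg was lowest at 1.32 under. The 4 Notch receptor genes of the list were called, Notch4 narrowly (adjusted p = 0.0429), with its call lost when replicate 2 or replicate 4 was left out.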

How the data were processed

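The 3 samples formed 1 group, so the comparison was of each gene with array background. The authors deposited 1 log2 signal per probe set and array; the log base was inferred from the values. Per the submitters' processing notes Affymetrix Expression Console was used, but its version and summary method, and any normalization, were not stated in the sources used. Per the labels' protocols, cortex was digested with collagenase A, YFP-positive cells were sorted, and their RNA went through 1 round of NuGEN amplification. No slide or scan information was used, so batches were not examined, and the number of arrays limits the precision.

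The platform's annotation gave a single symbol to 21789 of 35557 probe sets, several to 1621 and none to 12147. All 83 members matched RefSeq (GRCm38.p6). The probe set with the highest mean stood for a gene. The per-array background level was subtracted, and limma 3.58.1 (R 4.3.3) fitted the mean of 3 arrays with eBayes and a trend, tested one-sided and adjusted over 19938 genes. The script was tested on simulated data. Other steps used Python 3.11.15, pandas 2.3.3 and numpy 2.4.6. By this rule 21 of the 1027 olfactory receptor genes, 1 of 163 vomeronasal receptor genes and 10 of 44 keratin-associated protein genes were called. The count for the members was 17 of 83. Genes of families used as background were thus called too, so a call near the level does not by itself establish expression.

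The members and gene lists were chosen with earlier results of these data known. Named genes were all called members, all Timp genes, gelatinases, membrane-type MMPs and somatic ADAMs, the highest 3 and the lowest of each other subgroup, members near background or with wide spread, and up to 5 called genes and the lowest of each pathway list. Some further members and list genes were named after their values were seen. Alternatives were other percentiles and gene families for the background, the mean, the median or each of a gene's probe sets, quantile normalization, no variance trend, and leaving out each array. Mmp15, Adamts2 and some listed genes were not analysed here.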

Additional observations from a re-analysis of the deposited data

How the results depend on the processing

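The background level decided most. With the 99th percentile of olfactory receptor genes 6 members were called, 0 Mmp, 2 Adam, 2 Adamts and Adamtsl and 2 Timp genes, and 3303 genes in all: Timp2, Timp3, Adam9, Adam17, Adamts9 and Adamts17. Means then under the level were Adam15 (-0.12), Adam33 (-0.16), Adamts3 (-0.31), Adamts7 (-0.36), Mmp11 (-0.32) and Mmp2 (-0.22). With the 90th percentile 9964 genes and 25 members were called, with 8 Adam and 12 Adamts and Adamtsl genes among the members. Vomeronasal receptor genes as background gave 13410 genes and 42 members (9 Mmp, 12 Adam, 17 Adamts and Adamtsl, 4 Timp), and means then over the level were Adam11 (0.47), Adam1b (0.74), Adam22 (0.30), Adam4 (0.60), Adamts13 (0.43), Adamts14 (0.26), Adamts15 (0.45), Adamts16 (0.42), Adamts8 (0.49), Mmp10 (0.73), Mmp16 (0.51), Mmp17 (0.43), Mmp23 (0.81), Mmp28 (0.62), Mmp7 (0.34), Timp1 (0.51) and Timp4 (0.41). Keratin-associated protein genes, an alternative chosen after seeing the data, gave 709 genes and 1 member, Timp3 (0 Mmp, 0 Adam, 0 Adamts and Adamtsl, 1 Timp), with Adam10 (-1.12), Adam15 (-1.58), Adam17 (-0.70), Adam33 (-1.63), Adam9 (-0.38), Adamts1 (-1.20), Adamts3 (-1.77), Adamts5 (-1.22), Adamts7 (-1.83), Adamtsl4 (-1.38), Mmp11 (-1.79), Mmp14 (-1.29) and Mmp2 (-1.69) under the level. In every one of these settings the share of members called was below that of all genes.

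The mean of the probe sets put Adamts3 at -1.15, and their median, also chosen after seeing the data, put Adamts3 at -1.14 and Adamts17 at -0.60. Leaving out 1 array gave 6051 to 7806 genes and 12 to 19 members. By family, Mmp counts without 1 array were 1 to 3 and those of Adamts and Adamtsl genes 4 to 8. No paired analysis was possible because there is only 1 group. The cause of these changes was not tested. Signals near background limit what can be said of the members within 0.5 log2 units of it.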

Other observations

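Other proteases were measured on the same arrays. Of 12 further metalloproteases 5 were called (41.7%, against 37.3% of all genes). These were Nrd1 (4.11 above background), Mep1a, a meprin of the tubule brush border (2.58), Mme, neprilysin (2.28), Ece1, which makes endothelin (0.91), and Bmp1, the procollagen C-proteinase (0.61). Phex was lowest at 2.17 under. Ece1 was at 8.06, 7.31 and 6.37 in replicates 2, 4 and 5 and was under the level on replicate 5. Without replicate 2, 3 of the 12 were called, against 30.3% of all genes.

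Cysteine, aspartic and serine proteases and the protease inhibitor Cst3 were called in 7 of 10 cases (70%, against 37.3% of all genes). Ctsb was at 12.03, 12.01 and 11.92 (5.64 above), Cst3, cystatin C, at 11.87, 11.70 and 11.78 (5.44 above), Ctsl 4.67 above, Ctsd 4.09 above and Htra1 2.36 above. Ctsk, the collagenolytic cathepsin of osteoclasts, was lowest at 0.57 under.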
